A study of Mus musculus with 6 samples.

Results

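The 43 genes described here act in autophagy, mitophagy and the lysosome, and were measured in gastrocnemius, the large calf muscle, of mice with a muscle-specific knockout of Usp21, a ubiquitin-specific protease. The genes were taken by symbol from a table of 24532 genes; all 43 were present, and all 43 were among the 14109 genes with enough reads to test. Control mice were C57BL/6 animals of 12 weeks with USP21 flox/flox alleles, for which the labels name no Cre and give the genotype as Litter, in 3 libraries. Knockout mice carried Ckmm-Cre and the same floxed alleles, at the same age and on the same strain, in 3 libraries. The muscle creatine kinase promoter drives this Cre in muscle fibres, so other cells of the tissue keep Usp21, and no library comes from mice with Cre alone. Whole muscle was used, so fewer cells of a type and less RNA per cell cannot be told apart.

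Autophagy encloses cytoplasm in a double membrane, the autophagosome, which fuses with the lysosome. A kinase complex around ULK1 starts the process, a lipid kinase complex around Beclin 1 marks the membrane, and ubiquitin-like conjugation attaches proteins of the Atg8 family (LC3 and GABARAP) to it. Cargo receptors such as p62 bind ubiquitin on one side and LC3 on the other. In muscle the pathway removes damaged mitochondria and contributes to protein loss in fasting and disuse.

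Total counts were 48658436 to 67332846 per library, and the members had between 97 and 73055 counts in a library. Usp21 stood at 19.3, 19.3 and 19.2 CPM (counts scaled to the size of the library) in controls 1 to 3 and at 9.08, 7.19 and 7.47 CPM in knockout muscle 1 to 3. All 10 skeletal muscle markers examined were present, at a mean of 852 to 25902 FPKM (fragments scaled to transcript length and library size). Slow fibre markers were uneven: their 9 genes summed to 1424, 1385 and 166 CPM in controls 1 to 3 and to 1084, 767 and 1744 CPM in knockout muscle 1 to 3. Control 3 therefore stood apart, and values without it are given where they moved by over 1.5 times for the 20 members with full statistics. Nothing in the labels states that the samples of a group are separate animals, and p-values here reflect only how far these 6 samples spread, which may be technical.

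No member passed the test between knockout and control muscle. With edgeR's quasi-likelihood test and Benjamini-Hochberg adjustment over all genes, 0 of 43 members had an adjusted p under 0.05, where 0.0567% of all genes did (0.0354% higher and 0.0213% lower). The smallest adjusted p among the members was 0.269, for Pink1. At an unadjusted p under 0.05 stood 6 members, or 14.0%, against 11.6% of all genes, a share near the background (all genes, 6.56% higher and 5.07% lower). They were Pink1, Bnip3l, Tfeb, Atg4d and Atg5, which were lower in knockouts, and Rb1cc1, which was higher. DESeq2's Wald test called 290 of all 14109 genes, of which 1 was a member, Pink1. The limma-voom fit called 5 genes and 0 members. Each had 6 members at an unadjusted p under 0.05, where the shares of all genes were 12.4% (DESeq2) and 11.3% (limma-voom). The count of 6 was 3 without control 1, where the share of all genes was 6.30%, and 1, Pink1, without knockout 1, where it was 6.56%.

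Direction leaned to lower values in knockouts, by small amounts. Of the 43 members, 31 were below 0 and 12 above 0 in log2 fold change (knockout minus control), with a median of -0.057, where the median of all genes was -0.0037 and 50.7% were negative. The median was -0.10 without control 2 and -0.032 without control 3. With the authors' FPKM on the scale log2(FPKM + 1), 37 members were negative and 6 positive, with a median of -0.12. The median of all genes was also lower on that scale, at -0.047. Knockout and control libraries did not overlap for 7 members, or 16.3%, against 17.3% of all genes. Lower in every knockout were 6 members, or 14.0% of the 43 (all genes, 8.87%), and higher in every knockout was 1, or 2.33% (all genes, 8.38%). Precision was high for these genes: the 95% interval of the fold change lay within 1.5-fold in either direction for 40 members, or 93.0%. Among all genes that share was 56.8%, and among other genes with a mean of at least 10 CPM it was 82.0%. The exceptions were Tfeb, Atg4a and Gabarapl1.

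**Figure D1:**
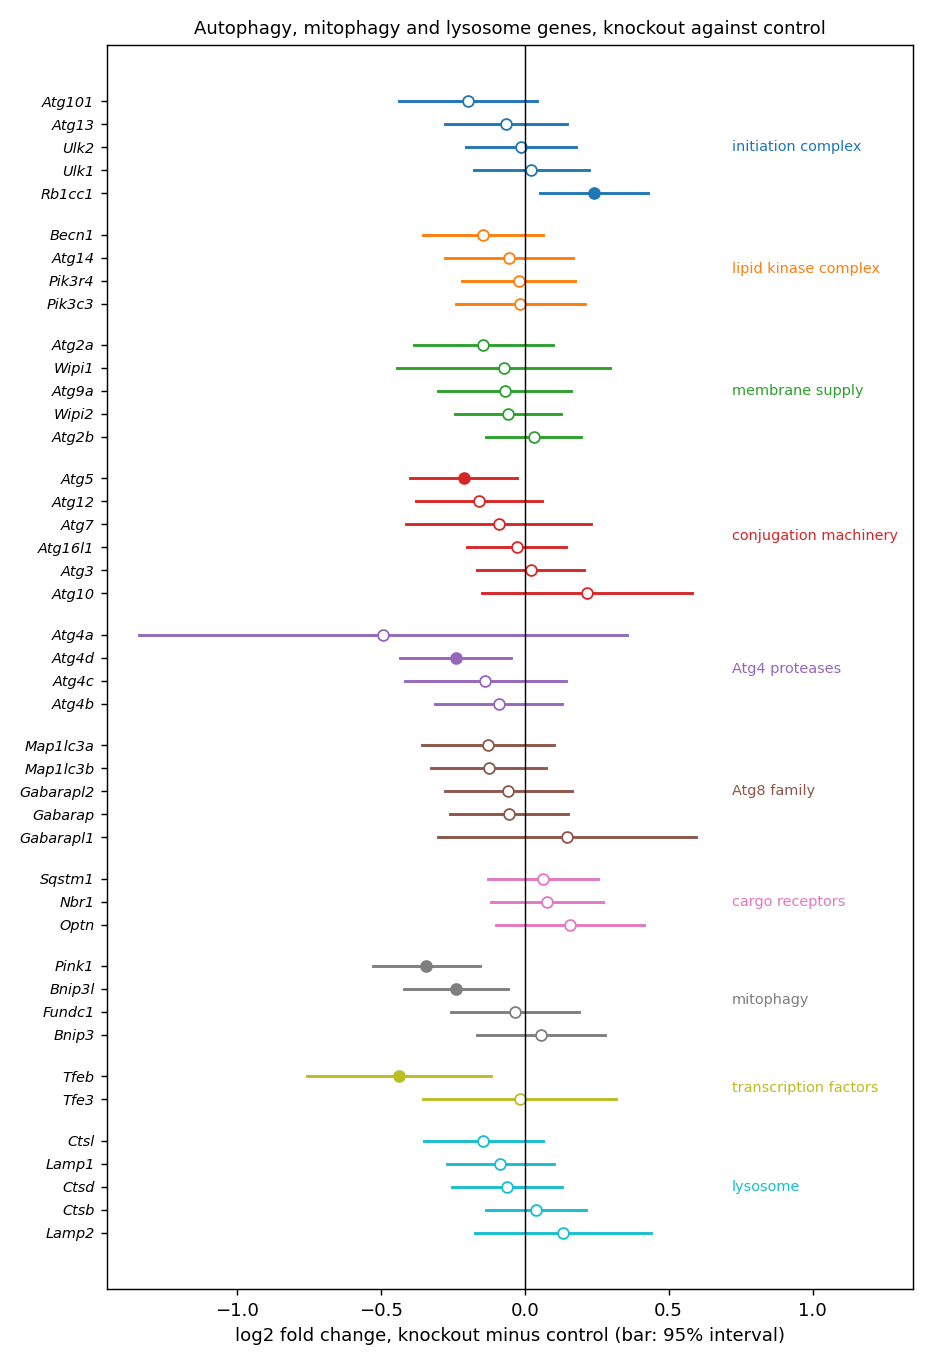
Log2 fold change of each of the 43 members (points) with its 95% interval (bars) on the horizontal axis, by role group; filled points have an unadjusted edgeR p under 0.05. Most intervals cross 0, and the 6 filled points are Rb1cc1 to the right and Atg5, Atg4d, Pink1, Bnip3l and Tfeb to the left.

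Levels per length ranged widely. Pink1 was the most abundant member in FPKM, at 474 ± 19.9 in controls and 356 ± 24.5 in knockouts (SD, n = 3 each), and ranked 109 among the 14109 genes tested. Sqstm1, which encodes the cargo receptor p62, followed by mean over all libraries, at 330 to 333 FPKM in controls and 324 to 335 FPKM in knockouts. The lysosomal protease Ctsd was at 339 ± 6.62 and 310 ± 16.7 FPKM, with every knockout (291 to 324) below every control (331 to 344). Lamp1, a major protein of the lysosomal membrane, was at 255 ± 2.40 and 229 ± 15.6 FPKM, also without overlap. In CPM, Ctsd and Lamp1 overlapped between the groups. On the scale log2(FPKM + 1) the median log2 fold change of all genes was -0.047. The lowest were the LC3-processing proteases Atg4c (2.89 ± 0.254 and 2.40 ± 0.127 FPKM) and Atg4a (1.84 ± 0.198 and 1.23 ± 0.635 FPKM). By group, the median FPKM was 118 for the Atg8 family, 83.9 for mitophagy and 73.0 for the lysosome genes, against 24.6 for initiation, 7.33 for conjugation and 5.64 for the lipid kinase complex.

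**Figure D2:**
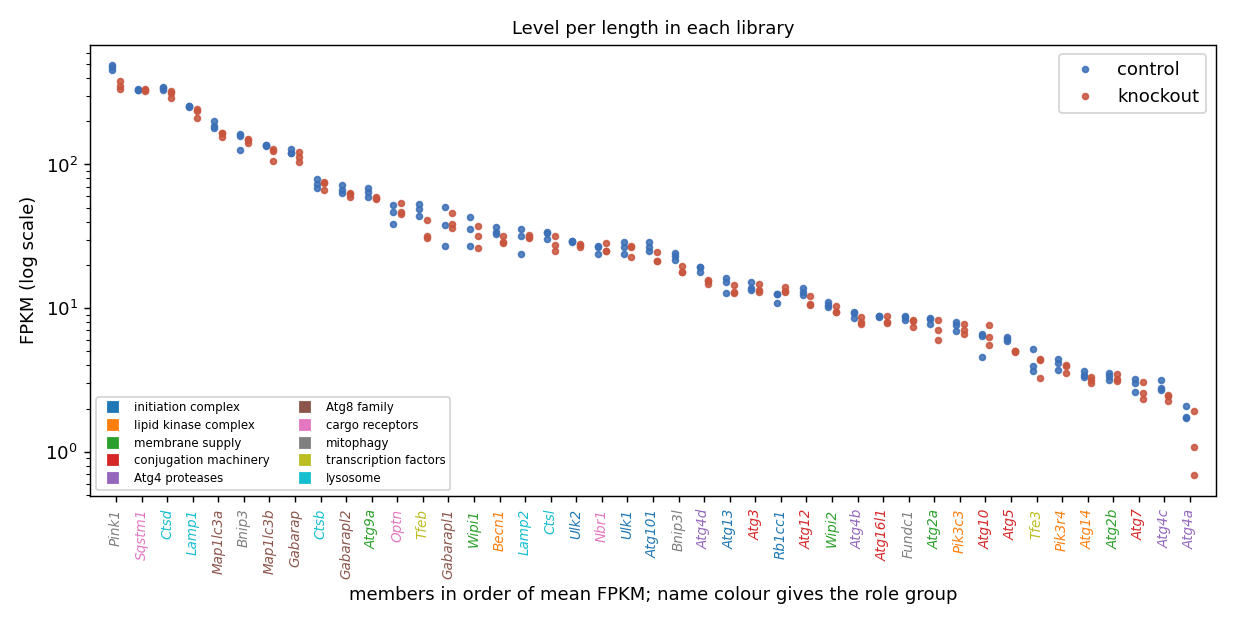
FPKM of each member in each of the 6 libraries (points; vertical log axis), in order of mean FPKM, with names coloured by role group. Levels run from Pink1 at a mean of 415 FPKM down to Atg4a at 1.54 FPKM, and knockout points lie beside control points for most members.

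The initiation complex holds the kinases ULK1 and ULK2, the scaffold FIP200 encoded by Rb1cc1, and the adaptors ATG13 and ATG101. Rb1cc1 (Entrez 12421; RefSeq position on GRCm38.p6, the build of mm10, chromosome 1, 6214634 to 6276375) was at 86.6, 84.1 and 78.5 CPM in controls 1 to 3 and at 101, 101 and 92.3 CPM in knockout muscle 1 to 3. Every knockout was above every control. Its log2 fold change was 0.24 (SE 0.081, 95% interval 0.052 to 0.43, edgeR adjusted p = 0.363). On the scale log2(FPKM + 1) it was 0.16 (limma, unadjusted p = 0.099). Rb1cc1 kept an unadjusted p under 0.05 in 4 of the 6 edgeR fits that left out a library, but not without knockout 1 or knockout 2. Atg101 was at 32.4, 29.5 and 36.5 CPM in control muscle and 26.7, 28.3 and 30.8 CPM in knockout muscle, groups that overlapped (-0.20, SE 0.10, adjusted p = 0.515; -0.11 without control 3). Both kinases overlapped between the groups. Ulk1 was at 128 to 142 CPM in control muscle and 127 to 144 CPM in knockout muscle (95% interval of the log2 fold change -0.18 to 0.22), and Ulk2 at 162 to 175 and 158 to 177 CPM (-0.20 to 0.18). Atg13 was at -0.065. The ratio of Ulk2 to Ulk1 in FPKM was 1.11 ± 0.102 in controls and 1.08 ± 0.145 in knockouts (SD, n = 3 each).

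The lipid kinase complex makes phosphatidylinositol 3-phosphate on the growing membrane; Pik3c3 encodes the catalytic subunit, Pik3r4 its regulatory partner, Becn1 the scaffold Beclin 1 and Atg14 the subunit specific to autophagy. Becn1 stood at 66.1, 65.6 and 76.5 CPM in control muscle and 65.5, 62.8 and 59.9 CPM in knockout muscle. Every knockout was below every control, with knockout 1 just under control 2, and the difference did not pass (log2 fold change -0.15, SE 0.089, adjusted p = 0.578). Control 3 was the highest, and without it the value was -0.070. Exons of Becn1 overlap those of Cntd1 on the other strand over 43.9% of their length. Cntd1 was at a mean of 0.568 CPM in control muscle and 0.469 CPM in knockout muscle. The part of this overlap in the Becn1 counts was not tested. Atg14 was at 11.7 to 11.9 CPM in control muscle and 10.7 to 12.4 CPM in knockout muscle (-0.054, SE 0.095, adjusted p = 0.865), with values of -0.12 without knockout 2 and -0.015 without knockout 1. Pik3c3 and Pik3r4 were at -0.015 and -0.021, and all 4 genes of the complex had 95% intervals within 1.5-fold.

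Membrane for the autophagosome is supplied by vesicles with the scramblase ATG9A and by lipid transfer through ATG2 proteins, which WIPI proteins help to place. Atg9a, the most abundant of these genes per length, was at 244, 219 and 275 CPM in control muscle and 230, 240 and 233 CPM in knockout muscle (log2 fold change -0.069, adjusted p = 0.827). Atg2a was at 50.7 to 53.1 CPM in control muscle and at 45.4, 41.4 and 53.4 CPM in knockout muscle, with knockout 3 above the controls (-0.14, SE 0.10, adjusted p = 0.637). The value was -0.25 when knockout 3 was left out and -0.064 when knockout 2 was. Its paralog Atg2b was at 33.3 to 34.1 and 33.1 to 36.0 CPM (0.032). Wipi2 was at -0.057 (SE 0.079, adjusted p = 0.824), at -0.033 without control 3, and between -0.11 (without control 2) and -0.027 (without knockout 1). Wipi1 varied more between control samples (63.6, 74.2 and 50.6 CPM) than between the groups (-0.073, SE 0.16).

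Conjugation uses an E1-like enzyme (ATG7), E2-like enzymes (ATG3 and ATG10) and the ATG12-ATG5-ATG16L1 complex that directs LC3 to the membrane. Atg5 (Entrez 11793; chromosome 10, 44268322 to 44364299) was at 14.3, 14.3 and 14.4 CPM in control muscle and 12.2, 12.7 and 12.2 CPM in knockout muscle. The groups did not overlap, and both were narrow. The log2 fold change was -0.21 (SE 0.080, 95% interval -0.40 to -0.026, adjusted p = 0.385). An unadjusted p under 0.05 held in 1 of the 6 fits that left out a library. Atg12, whose product is joined to ATG5, was at 30.4, 30.6 and 35.6 CPM in control muscle and 27.3, 28.5 and 30.7 CPM in knockout muscle, with overlap (-0.16, SE 0.094, adjusted p = 0.562; -0.080 without control 3). Atg16l1 (-0.028) and Atg3 (0.020) were close to 0, with 95% intervals of -0.20 to 0.15 and -0.16 to 0.20. Atg7 (-0.091, SE 0.14) and Atg10 (0.22, SE 0.16) had wider spreads.

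The 4 Atg4 proteases trim Atg8 proteins before conjugation and release them from membranes afterwards, and all 4 genes had negative log2 fold changes. Atg4d (Entrez 235040; chromosome 9, 21265205 to 21274837), the most abundant per length, was at 57.1, 51.6 and 60.7 CPM in control muscle and 48.3, 48.1 and 47.3 CPM in knockout muscle. No library of one group reached the other group, and the log2 fold change was -0.24 (SE 0.083, 95% interval -0.43 to -0.046, adjusted p = 0.367). An unadjusted p under 0.05 held in 2 of the 6 fits that left out a library. Its exons overlap those of Kri1 on the opposite strand over 19.3% of their length; Kri1 had a mean of 13.0 CPM in control muscle and 12.4 CPM in knockout muscle (adjusted p = 0.850). Atg4a was at 3.57, 4.17 and 3.81 CPM in control muscle and at 1.49, 4.44 and 2.34 CPM in knockout muscle. Knockout 2 was above all controls, and the estimate was the least precise of the 43 (-0.49, SE 0.36, adjusted p = 0.642). It was -1.01 without knockout 2 (adjusted p = 0.615) and -0.19 without knockout 1. Of the 50-base words in Atg4a transcripts, 51.2% also occur in the pseudogene Atg4a-ps, so the placement of its reads is uncertain. Atg4b (-0.090) and Atg4c (-0.14) had overlapping groups.

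The Atg8 family forms the coat that links cargo to the membrane. Map1lc3a, which encodes LC3A, was at 183, 183 and 215 CPM in control muscle and 177, 189 and 165 CPM in knockout muscle (log2 fold change -0.13, SE 0.098, adjusted p = 0.653). Without control 3, the highest library, it was -0.047, and without knockout 3 it was -0.082. Map1lc3b, which encodes the widely used marker LC3B, was at 229, 219 and 243 CPM in control muscle and 216, 195 and 222 CPM in knockout muscle (-0.13, SE 0.086, adjusted p = 0.622; -0.073 without knockout 2). Both pairs of groups overlapped. Per length Map1lc3a was the higher, at a mean of 187 against 136 FPKM in controls, and the mean ratio of the pair was 1.38 in controls and 1.38 in knockouts. Gabarap was at 123 ± 3.84 FPKM in controls, and Gabarapl2 at 67.1 ± 4.63 FPKM. Their log2 fold changes were -0.055 and -0.057. Gabarapl1, often induced with FoxO activity, was at 66.1, 85.7 and 49.2 CPM in control muscle and 69.7, 69.8 and 83.3 CPM in knockout muscle (0.15, SE 0.19, adjusted p = 0.803), so its spread between control samples covered all knockouts.

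The 3 cargo receptors had positive log2 fold changes, none past the test. Sqstm1 (chromosome 11, 50200152 to 50210820) was at 660, 634 and 694 CPM in control muscle and 666, 722 and 688 CPM in knockout muscle (0.062, 95% interval -0.13 to 0.25, adjusted p = 0.805). Nbr1, a relative of p62 with the same kind of LC3-binding site, was at 114 to 124 and 117 to 135 CPM (0.077, SE 0.084, adjusted p = 0.756), with values of 0.050 without control 3, 0.024 without knockout 3 and 0.12 without knockout 1. Optn, which encodes the mitophagy receptor optineurin, was at 112, 120 and 96.1 CPM in control muscle and 132, 122 and 111 CPM in knockout muscle (0.16, SE 0.11, adjusted p = 0.630). Without control 3, the lowest library, it was 0.073, and without knockout 1 it was 0.091.

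Among the 4 mitophagy genes, Pink1 and Bnip3l were below every control in every knockout, as were 8.87% of all genes. PINK1 is a kinase that gathers on damaged mitochondria and marks them with phosphorylated ubiquitin. Pink1 (Entrez 68943; chromosome 4, 138313409 to 138326296) was at 1111, 1107 and 1105 CPM in controls 1 to 3 and at 848, 855 and 919 CPM in knockout muscle 1 to 3. The controls lay close to each other, and all knockouts were below them, knockout 3 the nearest. The knockout level was 78.9% of control, a log2 fold change of -0.34 (SE 0.080, 95% interval -0.53 to -0.16). It ranked 165 of 14109 by p, and the edgeR adjusted p was 0.269. DESeq2's Wald test gave -0.34 (SE 0.075) and an adjusted p of 0.00115, so the call rests on the choice of test. An unadjusted p under 0.05 held in all 6 fits that left out a library, with log2 fold changes of -0.38 to -0.32, and without control 3 the value was -0.34. In FPKM the controls were at 477, 491 and 452 and the knockouts at 352, 334 and 382. By exact permutation of the log2 CPM values the two-sided p was 0.1, and no design with 3 libraries a group can go lower.

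BNIP3 and its relative BNIP3L, also called NIX, are outer membrane receptors that bind LC3 directly, and FUNDC1 is another such receptor. Bnip3l (Entrez 12177; chromosome 14, 66985238 to 67008877) was at 76.6, 70.8 and 72.4 CPM in control muscle and 58.7, 62.5 and 64.9 CPM in knockout muscle. The groups did not overlap (-0.24, SE 0.077, 95% interval -0.42 to -0.059, adjusted p = 0.363). Bnip3l kept an unadjusted p under 0.05 in 4 of the 6 fits that left out a library, but not without control 1 or knockout 1. Of its 50-base words, 20.8% also occur in the pseudogene Bnip3l-ps. Bnip3 was at 280, 262 and 227 CPM in control muscle and 264, 267 and 270 CPM in knockout muscle (0.057, SE 0.095, adjusted p = 0.855). In FPKM the ratio of Bnip3l to Bnip3 was 0.148, 0.146 and 0.173 in controls and 0.121, 0.127 and 0.131 in knockouts. These ratios did not overlap (exact permutation p = 0.1, two-sided, 0.333 after adjustment over 10 ratios of related genes). Fundc1 was at 23.9 to 26.9 CPM in control muscle and 22.2 to 26.1 CPM in knockout muscle (-0.034).

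**Figure D3:**
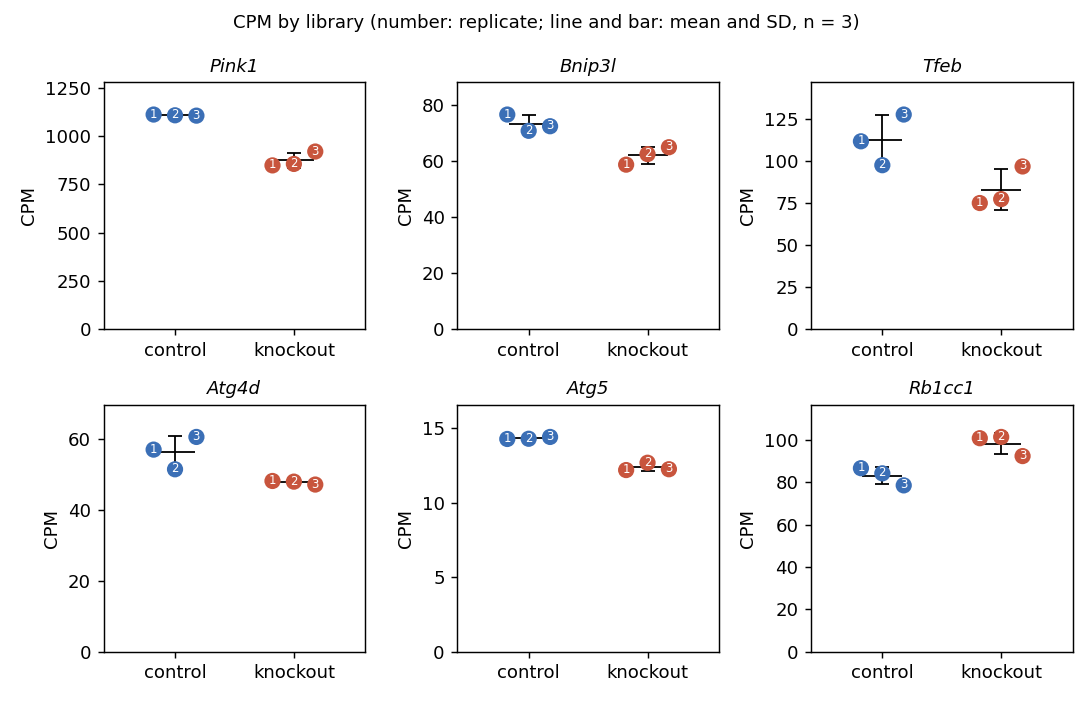
CPM of the 6 members with an unadjusted edgeR p under 0.05 in each library (numbered points, vertical axes from 0), with mean and SD (lines and bars, n = 3). For Pink1 the controls lie at 1105 to 1111 CPM and the knockouts at 848 to 919 CPM; for Rb1cc1 the knockouts are the higher group.

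TFEB and TFE3 are transcription factors that move to the nucleus when lysosomal nutrient signalling falls and switch on genes of the lysosome and autophagy; their activity is set mainly by phosphorylation, which counts do not show. Tfeb (Entrez 21425; chromosome 17, 47737037 to 47792416) was at 112, 97.7 and 128 CPM in control muscle and 75.2, 77.5 and 97.0 CPM in knockout muscle. Knockout 3 lay just under control 2. The log2 fold change was -0.44 (SE 0.14, 95% interval -0.75 to -0.12, adjusted p = 0.363). Without control 3 it was -0.33, and without knockout 3 it was -0.56. An unadjusted p under 0.05 held in 5 of the 6 fits that left out a library. Tfe3 was at 12.7, 16.2 and 12.3 CPM in control muscle and 14.2, 11.7 and 14.8 CPM in knockout muscle (-0.017, SE 0.14, adjusted p = 0.979), with a positive value without control 2 or knockout 2. Per length Tfeb was the more abundant of the pair, at 48.6 ± 4.54 against 4.26 ± 0.817 FPKM in controls (SD, n = 3 each).

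TFEB and its relatives bind CACGTG, so the promoters of the members are shown with that motif. RefSeq promoter windows of GRCm38.p6, the assembly that mm10 names, run from 250 bases before to 50 bases after a start. That start need not be the outer end of the gene. They were found for 35 members, in 41 windows; Rb1cc1, Becn1, Pik3c3, Atg12, Atg16l1, Map1lc3a, Bnip3l and Ctsb had no entry. For motifs, all genes means the 27025 genes with a window, whether or not they had enough reads to test, while all members had enough. CACGTG, which reads the same on both strands, occurred in 19.5% of the members' windows and in 7.15% of the 32851 windows of all genes. The share among tested genes alone was not taken. A longer palindrome of 10 bases that contains it was in 0 of the 41 windows (all genes, 0.326%). The forkhead motif GTAAACA, searched on both strands, was in 0 of the 41 (all genes, 3.65%). The 8 genes with CACGTG were Atg14, Atg3, Atg5, Atg7, Bnip3, Lamp1, Ctsd and Ctsl. Of these, the windows of Atg7 and Ctsl lie inside the RefSeq span of the gene. The Atg7 window begins at 114670846 on chromosome 6, and the gene at 114643127. The median log2 fold change of the 8 genes was -0.073 (2 positive, 6 negative), beside -0.057 (8 positive, 19 negative) for the 27 members whose windows lack CACGTG. The windows of Pink1 and Tfeb are among those 27. The windows of 4 genes are printed, 5′ to 3′ on the gene's strand with CACGTG in capitals: Lamp1, with the most copies, Ctsd, another lysosomal gene, Atg5, which holds it among the 4 of the 6 members above that have a window, and Pink1, without it.
Lamp1 (chr8:13158911-13159210, plus strand): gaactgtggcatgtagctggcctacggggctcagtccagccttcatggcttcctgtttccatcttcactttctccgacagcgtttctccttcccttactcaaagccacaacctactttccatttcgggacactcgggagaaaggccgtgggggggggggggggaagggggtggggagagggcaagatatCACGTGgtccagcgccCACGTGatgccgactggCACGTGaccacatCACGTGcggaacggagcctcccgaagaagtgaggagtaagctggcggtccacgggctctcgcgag
Ctsd (chr7:142387778-142388077, minus strand): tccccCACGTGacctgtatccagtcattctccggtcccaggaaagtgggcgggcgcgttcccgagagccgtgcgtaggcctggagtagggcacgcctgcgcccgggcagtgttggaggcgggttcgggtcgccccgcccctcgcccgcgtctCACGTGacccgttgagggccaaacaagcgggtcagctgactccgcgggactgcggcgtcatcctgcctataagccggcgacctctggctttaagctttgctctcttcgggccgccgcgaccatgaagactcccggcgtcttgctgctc
Atg5 (chr10:44268089-44268388, plus strand): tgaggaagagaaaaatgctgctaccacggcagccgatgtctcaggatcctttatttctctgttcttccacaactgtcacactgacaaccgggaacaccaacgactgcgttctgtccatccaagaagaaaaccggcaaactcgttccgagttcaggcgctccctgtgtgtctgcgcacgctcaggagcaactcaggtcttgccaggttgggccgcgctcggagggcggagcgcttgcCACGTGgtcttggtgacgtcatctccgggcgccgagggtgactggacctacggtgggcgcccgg
Pink1 (chr4:138326247-138326546, minus strand): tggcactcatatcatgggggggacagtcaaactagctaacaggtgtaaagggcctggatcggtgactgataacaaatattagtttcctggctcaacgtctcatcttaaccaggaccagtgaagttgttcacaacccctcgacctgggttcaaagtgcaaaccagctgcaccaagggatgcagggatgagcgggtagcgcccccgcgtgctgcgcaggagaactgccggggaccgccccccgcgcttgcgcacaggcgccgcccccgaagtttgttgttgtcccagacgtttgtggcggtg
A match describes letters in this window and shows no binding.

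The lysosome genes encode the membrane proteins LAMP1 and LAMP2 and the cathepsin proteases B, D and L. Lamp1, with 4 copies of CACGTG in the window above, was at 554, 545 and 590 CPM in control muscle and 533, 512 and 548 CPM in knockout muscle (log2 fold change -0.084, SE 0.079, adjusted p = 0.716; -0.049 without control 3). Ctsl was at 115, 113 and 110 CPM in control muscle and 98.9, 94.5 and 113 CPM in knockout muscle, with knockout 3 inside the control range (-0.14, SE 0.089, adjusted p = 0.583). Leaving out knockout 3 gave -0.22, and leaving out knockout 2 gave -0.091. Ctsd, with 2 copies, was at 617 to 694 CPM in control muscle and 617 to 644 CPM in knockout muscle (-0.061, 95% interval -0.25 to 0.13). Ctsb was at 339 to 357 and 344 to 362 CPM (0.039, 95% interval -0.13 to 0.21). Lamp2 was at 93.9, 103 and 72.0 CPM in control muscle and 94.9 to 100 CPM in knockout muscle (0.13, SE 0.13). All 5 had intervals within 1.5-fold. Macrophages are also rich in lysosomes: of 15 macrophage and leukocyte markers 14 had positive log2 fold changes (median 0.38), none was at 0, and their sum was 163 to 279 CPM in control muscle and 171 to 288 CPM in knockout muscle. Their part in the lysosomal values was not tested.

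For 36 of the 43 members the libraries of the groups overlapped. Control 3 held the highest or lowest of the 6 values for 27 members, or 62.8% (all genes, 44.0%); it was the highest for 17 and the lowest for 10. Against the mean of the other controls, on the log2 scale, control 3 was lowest in Gabarapl1 (-0.61), Lamp2 (-0.45), Wipi1 (-0.44) and Atg10 (-0.40). It was highest in Atg7 (0.30), Tfeb (0.29), Gabarapl2 (0.26) and Atg9a (0.25). Slow fibre markers were at 166 CPM in this library, and their part in these values was not tested. Knockout 1 held the highest or lowest value for 16 members, or 37.2% (all genes, 30.4%). It was the lowest library for 14 of the 43 members, a larger share than the 14.6% among all genes, and the highest for 2. The 43 genes together took 6197, 6077 and 6287 CPM in control muscle and 5794, 5789 and 5961 CPM in knockout muscle. Pink1 alone made up 1105 to 1111 and 848 to 919 CPM of these sums.

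**Figure D4:**
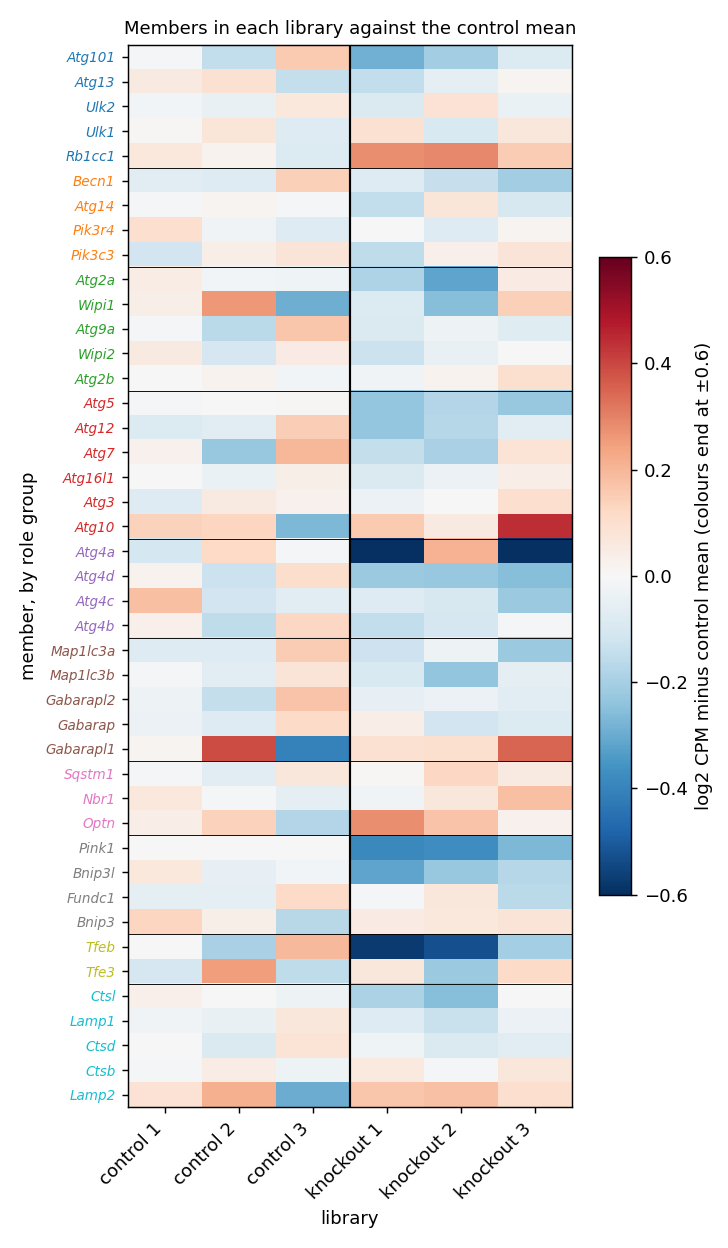
Colour gives log2 CPM of each member (rows, by role group) in each library (columns) minus the control mean, with colours ending at 0.6 in either direction. The rows of Pink1, Tfeb and Bnip3l are blue in all 3 knockouts and that of Rb1cc1 red, while Gabarapl1, Lamp2 and Wipi1 differ in colour between control 2 and control 3.

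Related genes were also compared within each library, which removes scaling. Of 10 ratios in FPKM, 3 did not overlap between the groups, namely Bnip3l to Bnip3, Atg4d to Atg4b and Atg2b to Atg2a. Atg4d to Atg4b was 2.06, 2.11 and 2.05 in controls and 1.97, 1.90 and 1.76 in knockouts. Atg2b to Atg2a was 0.394, 0.417 and 0.409 in controls and 0.455, 0.514 and 0.420 in knockouts. Each had an exact permutation p of 0.1 (two-sided), the smallest possible here, and 0.333 after adjustment over the 10.

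In 4 further lists of pathway genes, 0 genes passed an edgeR adjusted p under 0.05. Of 34 other autophagy genes, 1 was higher and 5 lower at an unadjusted p under 0.05, or 17.6% (all genes, 11.6%). Their median log2 fold change was -0.034. Rubcn, which encodes an inhibitor of the lipid kinase complex, was at 48.8, 45.8 and 52.5 CPM in control muscle and 40.1, 41.6 and 42.3 CPM in knockout muscle (-0.25, SE 0.079, adjusted p = 0.363). Wdr45b, a relative of the WIPI genes, was at 20.2, 19.4 and 20.0 CPM in control muscle and 17.3, 16.8 and 17.2 CPM in knockout muscle (-0.22, SE 0.074, adjusted p = 0.364). Tecpr1, a gene of autophagosome fusion, was at -0.36 (SE 0.13, adjusted p = 0.382). Among 23 genes of nutrient signalling to the lysosome, 1 was higher and 2 lower at that level, or 13% (median -0.022). Sesn2, a stress-induced inhibitor of mTORC1 signalling, was at -0.62 (adjusted p = 0.369), the mTORC1 subunit Rptor at -0.19 (0.406) and Fnip2, a folliculin partner, at 0.28 (0.422).

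Of 43 other hydrolases and membrane proteins, 26 were positive and 17 negative (median 0.032). At an unadjusted edgeR p under 0.05, 2 were higher and 0 lower, or 4.65%, a share below the 11.6% of all genes. Npc1, the lysosomal cholesterol exporter, was at 104, 143 and 105 CPM in control muscle and 146, 191 and 164 CPM in knockout muscle, with no overlap (log2 fold change 0.51, SE 0.15, adjusted p = 0.350). The galactosidase Gla was at 0.56 (SE 0.19, adjusted p = 0.367) and the cathepsin Ctsh at 0.34 (adjusted p = 0.471). Of 16 proton pump subunits, 1 was higher and 0 lower at that level, or 6.25% (median 0.047). That subunit, Atp6v1b2, was at 67.7, 62.5 and 69.1 CPM in control muscle and 122, 113 and 68.9 CPM in knockout muscle, so knockout 3 lay among the controls (0.61, SE 0.20, adjusted p = 0.363). Atp6ap1 was at 0.18 (adjusted p = 0.451) and Atp6v0c at -0.44 (adjusted p = 0.475).

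Markers of other cells differed between libraries as well. All 10 fibroblast markers had positive log2 fold changes (median 0.23), 4 of them, or 40%, at an unadjusted p under 0.05 (all genes, 11.6%). The sum of the 10 was 1747 to 2651 CPM in control muscle and 2628 to 3134 CPM in knockout muscle. Of 8 endothelial markers, 3 were positive and 5 negative (median -0.11), with sums of 332 to 403 and 332 to 366 CPM. Of the 9 slow fibre markers, 6 were positive (median 0.52), with control 3 far below the rest. The sums of the other controls, 1424 and 1385 CPM, lay between the lowest and highest knockout sums of 767 and 1744 CPM. No marker of these lists was at 0, and their part in the members' values was not tested.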

How the data were processed

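RNA from whole gastrocnemius (6 samples) was made into libraries with a stranded mRNA kit, per the labels' protocols, and sequenced. The deposited table gives read counts per gene, unnormalized per the file headers; its FPKM and TPM columns are the authors' values as well, and TPM was left unused. Per the submitters' processing notes, the tools were StringTie 1.3.4d, Bowtie2 2.3.4.1, FastQC 0.11.7 and bcl2fastq 2.20.0, and the build mm10. The sources used here do not give their roles or say whether counting used the strand. Exons of 8 members overlap those of another gene of the table on the opposite strand (GENCODE M21), and 6 members share over 10% of their 50-base words with another gene.

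Counts were tested with edgeR 4.0.16 (R 4.3.3): filterByExpr with a minimum count of 10, TMM scaling, the quasi-likelihood test, and Benjamini-Hochberg adjustment over 14109 genes (threshold 0.05). Standard errors and 95% intervals came from the F statistic and its degrees of freedom. A prior count of 2 entered log2 CPM. The test was checked on simulated counts. A count of 0 would allow up to 3 counts, 0.0454 to 0.0598 CPM (counting error only). Libraries of a group differed beyond sampling noise (chi-square divided by its degrees of freedom at least 33.6). Columns of samples outside the series numbered 0.

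The members, lists and tests were chosen with earlier results of these data known. Full statistics are given for members with an unadjusted p under 0.05 and for the 2 with the smallest p in each of 10 role groups; of each pathway list, members past the threshold or else the 3 with the smallest p. Other members are named with shorter values. The 10 ratios of related genes, the promoter motifs and the overlaps were added after values were seen. Of the pathway symbols, Castor1 was not found, and Retreg1 is listed under the older symbol Fam134b and was not used. Alternatives were DESeq2 1.42.0 size factors, upper-quartile scaling, omitting the filter, requiring 1 CPM throughout a group, DESeq2's Wald test, limma-voom (limma 3.58.1), trended limma on log2-scaled FPKM (pseudocount 1 or 0.1), a replicate term, leaving out each library, an adjusted p under 0.10 and a fold change of at least 1.5.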

Additional observations from a re-analysis of the deposited data

How the results depend on the processing

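The 20 members given with full statistics kept their direction in 297 of 300 values over 15 alternatives, with no call, and 1 further value, that of Pink1 with DESeq2's Wald test (-0.34), kept its direction and was called. The 2 values that changed sign were those of Tfe3, 0.11 without control 2 and 0.079 without knockout 2, in a range of -0.092 (without control 3) to 0.11; the cause was not tested. Over all genes, 8 were called; DESeq2's Wald test called 290, limma-voom 5, limma on log2 of FPKM plus 1 or plus 0.1 1 each, and fits without single libraries 1 (without control 3 or knockout 2) to 141 (without knockout 3). Members called were 0 in every fit but DESeq2's, with 1. Members at an unadjusted p under 0.05 numbered 1 (without knockout 1; all genes, 6.56%) to 7 (without knockout 3; all genes, 16.2%), and 9, all lower, on either FPKM scale (all genes, 13.4% and 13.5%). The members' median log2 fold change was -0.10 (without control 2) to -0.032 (without control 3), -0.12 with FPKM plus 1 and -0.13 with FPKM plus 0.1, where the median of all genes was -0.047 and -0.070. The lowest count of any member in a library was 97, for Atg4a in knockout 1, beside 224 in knockout 2 and 128 in knockout 3. Whether depth limited any member was not tested.

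Deviations of same-numbered libraries correlated at -0.0082, -0.19 and -0.098, so equal numbers showed no shared profile. Differently numbered pairs ran from -0.084 (control 3 with knockout 1) to 0.18 (control 3 with knockout 2). Whether the samples were paired in another way was not tested. With the replicate block, 0 genes and 0 members were called, 4 members were at an unadjusted p under 0.05 (all genes, 8.25%) and the members' median was -0.057.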
